A study of Mus musculus with 12 samples.

Results

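The lysosome genes described here are 37 genes, taken by symbol from a table of 38215 genes in which reads were counted. By the role of the protein, 18 encode soluble hydrolases, 3 encode soluble lumenal cofactors, 9 encode membrane proteins, 4 encode proton pump proteins, and 3 are regulators or an autophagy receptor. RNAseq was performed on RAW264.7 cells, an established mouse macrophage line labelled as of BALB/c strain, in which SF3a1, a subunit of the U2 snRNP-associated splicing complex SF3a, had been targeted with siRNA. The 12 libraries fell into 4 groups of 3, given non-targeting control siRNA or SF3a1 siRNA, each either left without LPS or exposed to it. LPS, the bacterial lipopolysaccharide sensed by TLR4, was given at 20 ng/ml for 4 hours, and siRNA had been introduced 24 hours before that exposure. All 4 groups therefore went through siRNA transfection by nucleofection, and a group of cells without siRNA was not analysed here. The comparisons asked how LPS changed these genes with control siRNA, and how SF3a1 siRNA changed them without and with LPS.

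Lysosomes are acidic organelles in which proteins, lipids, glycans and nucleic acids from endocytosis, phagocytosis and autophagy are broken down. A vacuolar ATPase pumps protons into the lumen, acid hydrolases cut the cargo with the help of lumenal cofactors, and heavily glycosylated membrane proteins protect the membrane and carry products out. In macrophages this compartment degrades engulfed material and processes antigen, and many of its genes share a regulatory element that is bound by TFEB, TFE3 and related transcription factors.

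The number of reads counted on genes ranged from 12746019 to 41091887 among the libraries. Levels are given as CPM, the count scaled to library size by edgeR with TMM factors, and changes as log2 fold changes with their standard error (SE). An "edgeR adjusted p" is the p of edgeR's quasi-likelihood test after Benjamini-Hochberg adjustment over all 14983 genes left after removal of low counts, and a gene is called higher or lower when it is 0.1 or less. All 37 lysosome genes were kept, Ctsh with as few as 5 reads in 1 library. Treatments of the cell line were done in triplicate, so the p-values measure the spread between such replicates. In each group, replicate 1 came from 2 sequencing runs and was the deepest library, and libraries that share a replicate number deviated together from their group means. Results were therefore also computed without replicate 1 of every group, and with the replicate number as a block, which compares same-numbered libraries with each other. The share of reads outside annotated genes was 27.2% in replicate 1 of SF3a1 siRNA without LPS, against 17.8% to 21.6% in the other 11 libraries. For 10 of the 37 genes, among them Ctsb, Ctsz, Grn, Lamp1, Atp6v1h and Sqstm1, some exon bases also belong to a gene on the other strand. Whether reads were counted by strand is not given in the sources used here, so reads on those bases cannot be assigned with certainty.

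Sf3a1 itself was measured at 173, 216 and 185 CPM with control siRNA and at 27.1, 27.5 and 32.1 CPM with SF3a1 siRNA, both without LPS. With LPS it was at 150.0, 194 and 157 CPM with control siRNA and at 30.3, 26.7 and 45.0 CPM with SF3a1 siRNA. SF3a1 siRNA thus left 15.1% of the control level without LPS and 20.3% with LPS, and the groups did not overlap. The cells carried macrophage RNA, since 9 of 10 macrophage markers had a mean of at least 1 CPM and Lyz2, the macrophage lysozyme, was the most abundant at 6689 CPM. LPS with control siRNA called 8 of its genes higher and 1 lower, where 13.8% and 18.3% of all tested genes were called. SF3a1 siRNA called 3 higher and 0 lower without LPS, where 13.7% and 20.1% of all tested genes were called, and 3 higher and 4 lower with LPS, where 18.4% and 20.4% were. The 4 were Adgre1, Fcgr1, Ptprc and Fcer1g, and Fcgr1, an Fc receptor gene, was at 456 ± 96.4 CPM with control siRNA and 49.5 ± 8.58 CPM with SF3a1 siRNA in the presence of LPS (SD, n = 3). The summed level of this list was 9531 to 10829 CPM with control siRNA and no LPS and 12210 to 16110 CPM in the other libraries, and its part in the results was not tested. In RNA from whole cultures, fewer cells of a kind and less RNA per cell cannot be told apart.

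The lysosome genes differed widely in level. Scaled by length, the highest means over the 12 libraries were those of the cathepsin genes Ctsz and Ctsd, at 835 and 764 CPM per kb of exon, followed by the membrane protein gene Cd68 at 593 CPM per kb. The lowest were Ctsh, a cathepsin gene, at 0.342 CPM per kb, Mcoln1, which encodes a lysosomal calcium channel, at 3.34 CPM per kb, and Tfeb at 4.91 CPM per kb. The length used joins all annotated exons of a gene, in an annotation other than the one used for counting. This order thus depends partly on that length. Without scaling, the highest mean was that of Ctsb, at 2730 CPM. Together the 37 genes took 1.68%, 1.52% and 1.57% of the counted reads with control siRNA and no LPS, and 1.81%, 1.45% and 1.43% with LPS. With SF3a1 siRNA they took 2.25%, 2.26% and 2.19% without LPS and 2.29%, 2.40% and 2.08% with LPS. Every library with SF3a1 siRNA was above every library with control siRNA. Ctsb and Ctsd, 2 abundant cathepsin genes, made up 24.0% and 15.6% of the difference in summed CPM that SF3a1 siRNA made without LPS, and Sqstm1 and Ctsb made up 24.7% and 19.1% of it with LPS.

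**Figure D1:**
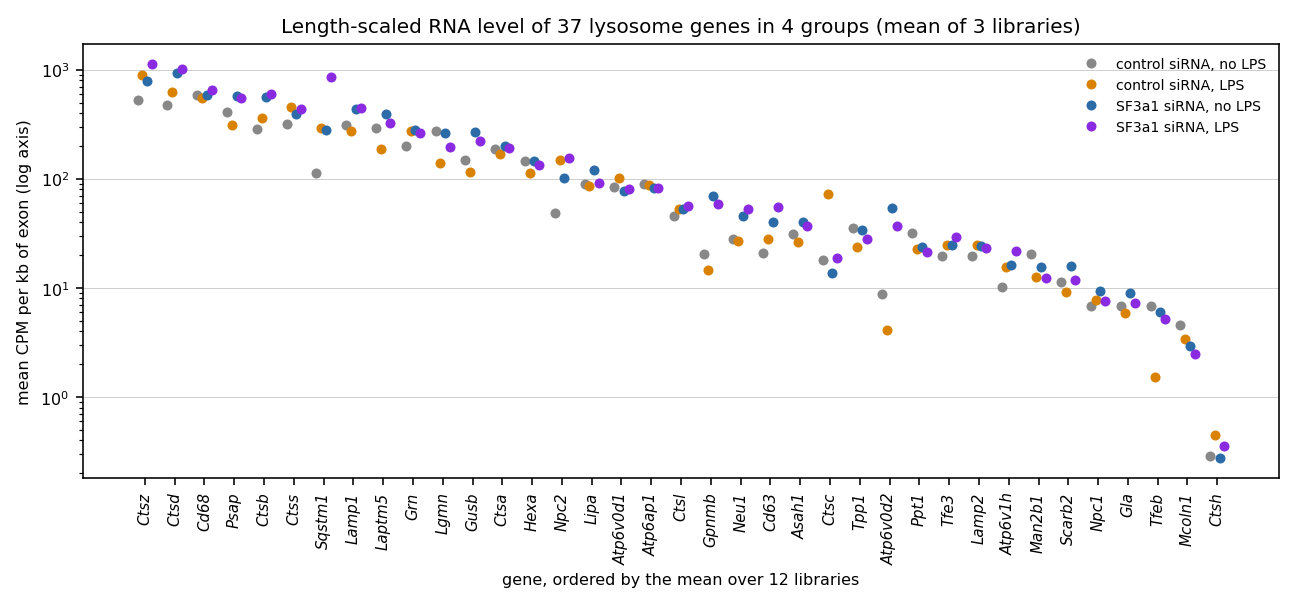
Mean CPM per kb of exon (log axis) of each of the 37 genes in the 4 groups, each point the mean of 3 libraries, with genes ordered by the mean over 12 libraries. The order depends partly on the length used, that of all annotated exons joined. Levels run from 835 CPM per kb for Ctsz to 0.342 for Ctsh, and Atp6v0d2, Sqstm1, Ctsc, Gpnmb and Tfeb show the widest spread between groups.

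With SF3a1 siRNA and no LPS, 17 of the 37 lysosome genes were called higher and 1 was called lower, where 13.7% of all tested genes were called higher and 20.1% lower. Their median log2 fold change was 0.38, against -0.02 over all tested genes. With LPS, SF3a1 siRNA again gave 17 higher and 1 lower, where 18.4% of all tested genes were called higher and 20.4% lower, and the medians were 0.25 and -0.04. The same 14 genes were called higher both without and with LPS. The share of all tested genes called higher in both is not given here. When replicate 1 of every group was left out, SF3a1 siRNA gave 20 higher and 1 lower without LPS, where 18.3% and 23.1% of all 14841 genes tested in that fit were called, and 18 higher and 2 lower with LPS, where 22% and 23.1% were. The replicate block gave 22 higher and 3 lower without LPS, against 20.7% and 26.3% of all genes, and 19 higher and 3 lower with LPS, against 24.6% and 26.3%. With no filter on low counts, where 28638 genes were tested, SF3a1 siRNA gave 12 higher and 1 lower without LPS, against 6.69% and 9.97% of all genes, and 15 higher and 1 lower with LPS, against 8.98% and 10%. That fit lost the calls of Asah1, Lipa, Psap, Grn, Lamp1 and Laptm5 without LPS and of Ctsz and Scarb2 with LPS. It also gained a higher call without LPS, of a gene not called with the filter. LPS with control siRNA was more even, with 6 genes higher and 8 lower, where 13.8% of all tested genes were called higher and 18.3% lower, and medians of -0.07 and -0.02. Without replicate 1 of every group LPS gave 7 higher and 8 lower, where 14.4% and 20.2% of all genes were called. With DESeq2's size factors in place of TMM the LPS split turned to 8 higher and 6 lower, where 14.4% and 17.1% of all genes were called, so no overall direction is given for LPS. With the replicate block it became 12 higher and 14 lower, where 18.8% and 25% of all genes were called. The LPS comparison and the SF3a1 comparisons share control libraries. Of the 37 genes, 12 were called in none of these 3 comparisons in the fit over all libraries without the block, namely Ctsa, Ctsh, Ctsl, Ctss, Gla, Hexa, Ppt1, Npc1, Cd68, Atp6v0d1, Atp6ap1 and Tfe3. With the block, 8 of them were called, and Ctsa, Ctsh, Ctsl and Atp6ap1 were not. No share of all tested genes called in none of the 3 comparisons is given here beside these counts. When SF3a1 was targeted without LPS the block called Gla at a log2 fold change of 0.39 (edgeR adjusted p = 0.0863), Npc1 at 0.46 (edgeR adjusted p = 0.0706) and Ppt1 at -0.45 (edgeR adjusted p = 0.0133). When it was targeted with LPS the block called Cd68 at 0.22 (edgeR adjusted p = 0.0826) and Atp6v0d1 at -0.32 (edgeR adjusted p = 0.0506). Without replicate 1 of every group 4 of the 12 were called, Ctss higher (0.52) and Gla lower (-0.50) with LPS, Npc1 and Tfe3 higher (0.45 and 0.47) with SF3a1 siRNA without LPS, and Gla higher (0.45) with SF3a1 siRNA and LPS.

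**Figure D2:**
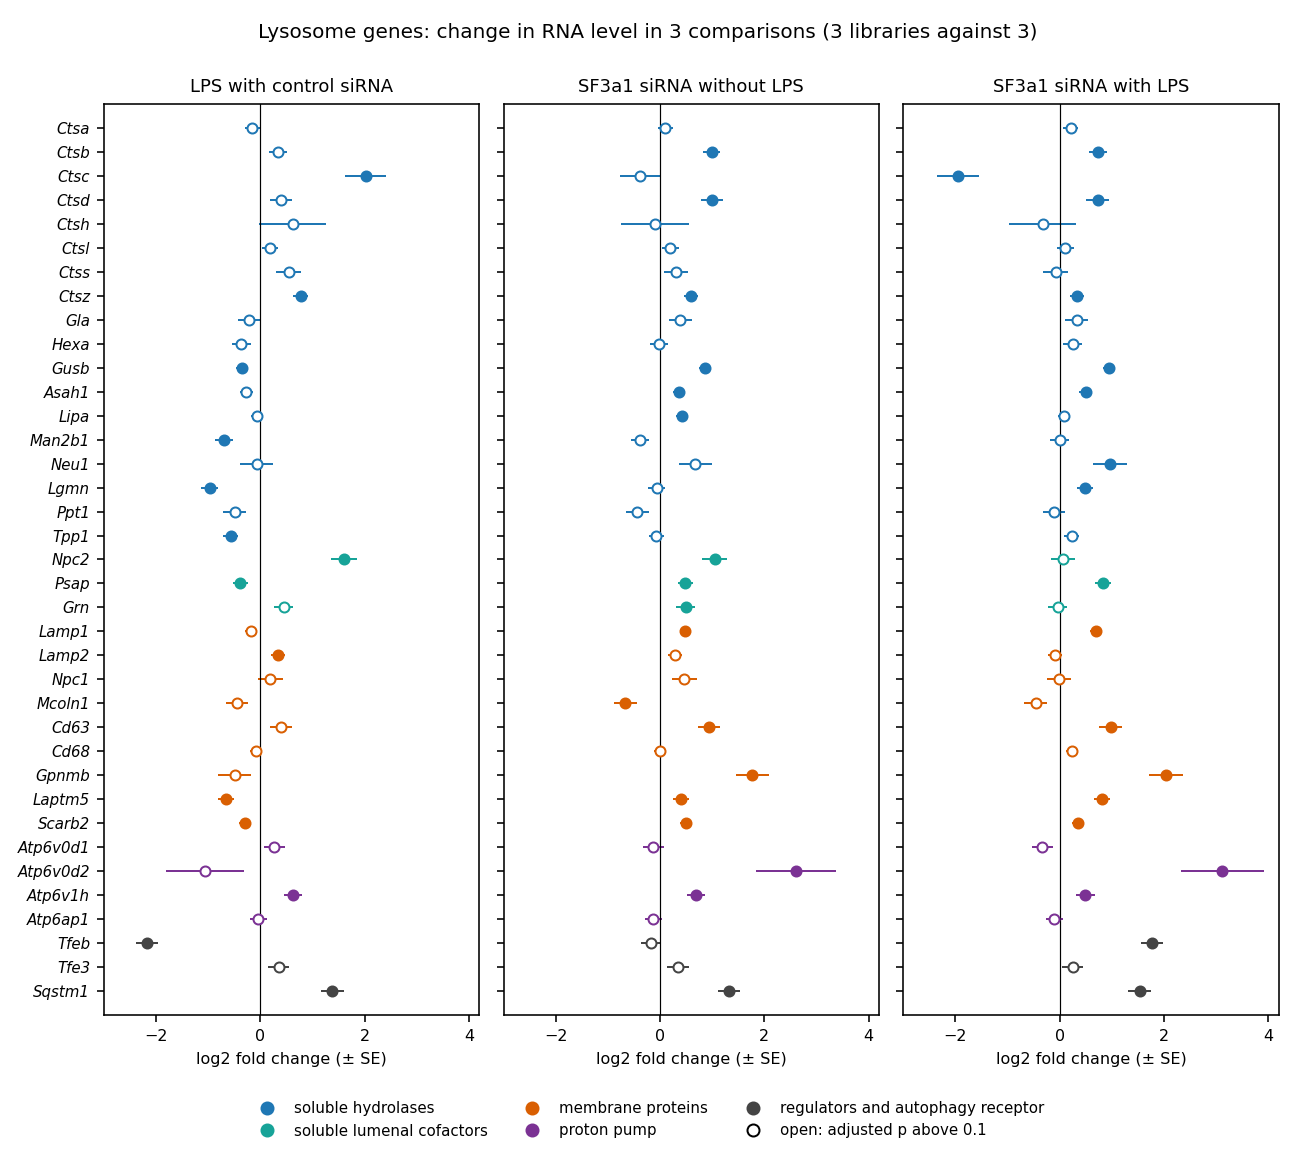
Log2 fold change with its SE for the 37 genes in 3 comparisons of 3 libraries against 3, coloured by role, with filled points for genes called at an edgeR adjusted p of 0.1 or less. In both SF3a1 comparisons 17 filled points lie right of 0 and 1 lies left of it, while the LPS comparison has 6 right and 8 left.

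The element bound by TFEB and TFE3 holds the letters CACGTG, in its longer form TCACGTGA, which contains CACGTG. Both read the same on the 2 strands. They were searched in RefSeq promoter windows of build GRCm38.p6 that run from 250 bases before to 50 bases after each transcription start site. RefSeq windows were at hand for 31 of the 37 genes, 37 windows in all. CACGTG was present in 8 of these windows (21.6%) and in 7.15% of all 32851 windows, and TCACGTGA in 5 (13.5%) and in 0.974% of all. Those 8 windows belonged to Ctsa, Ctsd, Ctsl, Gla, Lgmn, Lamp1, Mcoln1 and Atp6v0d1. Shown here are the stretches around 4 start sites that hold the letters but whose genes were called differently with SF3a1 siRNA. They comprise Ctsd and Lamp1, called higher without and with LPS, Mcoln1, called lower without LPS, and Atp6v0d1, called in neither condition in the fit without the block. Capitals mark CACGTG or, where present, TCACGTGA.
Ctsd (chr7:142387798-142387937, minus strand): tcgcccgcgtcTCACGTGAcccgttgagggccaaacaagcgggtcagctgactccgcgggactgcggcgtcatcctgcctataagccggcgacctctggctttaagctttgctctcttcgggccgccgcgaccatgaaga
Lamp1 (chr8:13159051-13159190, plus strand): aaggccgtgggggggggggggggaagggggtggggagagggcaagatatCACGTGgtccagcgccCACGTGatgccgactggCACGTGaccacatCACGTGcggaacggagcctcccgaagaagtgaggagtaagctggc
Mcoln1 (chr8:3500409-3500548, plus strand): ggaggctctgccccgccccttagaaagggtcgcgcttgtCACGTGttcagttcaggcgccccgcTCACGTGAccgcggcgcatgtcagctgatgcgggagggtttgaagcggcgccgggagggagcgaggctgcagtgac
Atp6v0d1 (chr8:105566035-105566174, minus strand): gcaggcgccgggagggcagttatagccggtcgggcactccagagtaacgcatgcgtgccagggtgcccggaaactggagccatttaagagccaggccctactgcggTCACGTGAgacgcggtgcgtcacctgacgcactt

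Each stretch holds 110 bases before and 30 bases from the start site on. Counted from the start site as base 1, the copies begin at -98 in the Ctsd stretch, at -61, -45, -28 and -15 in Lamp1, at -71 and -45 in Mcoln1, and at -3 in Atp6v0d1. Of the 8 genes with CACGTG in a window, 2 were called higher and 1 lower with SF3a1 siRNA without LPS, and of the 23 with windows that lack it, 11 were called higher and 0 lower, where 13.7% of all tested genes were called higher and 20.1% lower. With LPS, SF3a1 siRNA gave 3 higher and 0 lower of the 8, and 10 higher and 1 lower of the 23, where 18.4% and 20.4% of all tested genes were called. A match is a run of letters and not a measured binding site. The windows of Sqstm1, Gpnmb and Tfeb, 3 genes with large changes, did not hold these letters.

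**Figure D3:**
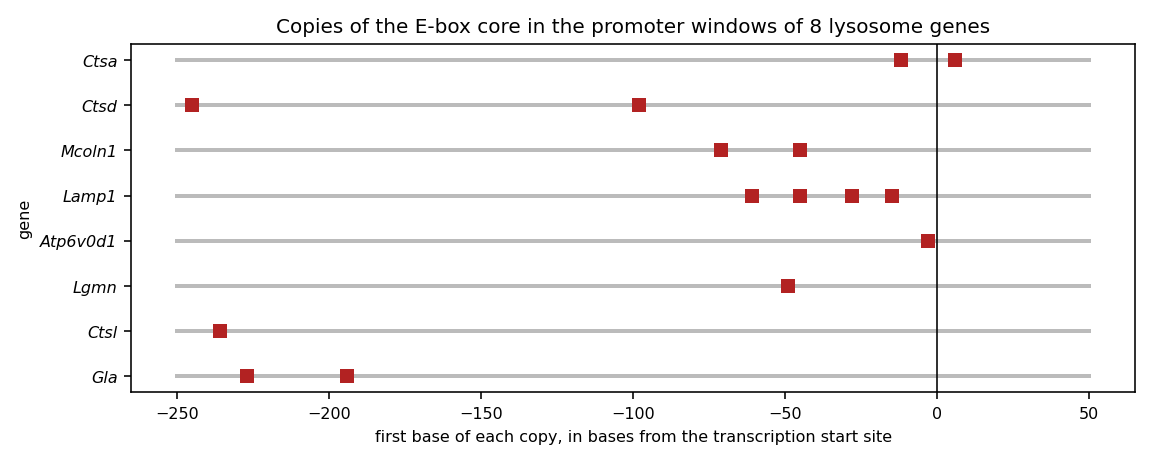
Positions of CACGTG copies (squares, first base of each copy) in the promoter windows (grey lines, from 250 bases before to 50 bases after the start site) of the 8 genes that hold them. Lamp1 has 4 copies within 61 bases before the start site. Near the far end of their windows lie the copies of Ctsl and Gla and a Ctsd copy at -245, outside the printed stretch.

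Among the 18 soluble hydrolases, 6 were called higher and 0 lower with SF3a1 siRNA without LPS, where 13.7% and 20.1% of all tested genes were called, and 7 higher and 1 lower with LPS, where 18.4% and 20.4% were. The replicate block gave 8 higher and 2 lower without LPS, where it called 20.7% and 26.3% of all genes, and again 7 higher and 1 lower with LPS, where it called 24.6% and 26.3%. The 2 lower ones were Man2b1 at -0.39 (edgeR adjusted p = 0.0715) and Ppt1. Ctsb encodes cathepsin B, a cysteine protease (chr14:63122462-63145923, mm10, as for all gene positions here), and its level was 1944, 1537 and 1671 CPM with control siRNA and 3597, 3337 and 3295 CPM with SF3a1 siRNA. Ctsd (chr7:142375911-142388038) encodes cathepsin D, the main aspartic protease of the compartment, and went from 1263, 1029 and 1033 CPM to 2468, 2181 and 1979 CPM. Both sets of libraries stood clear of each other, at about the same size of change for the 2 genes. Ctsb rose 1.99-fold (SE of the log2 fold change 0.17, edgeR adjusted p = 0.000974) and Ctsd 1.99-fold (SE of the log2 fold change 0.21, edgeR adjusted p = 0.00415). With LPS, Ctsb rose by 0.74 on the log2 scale (SE 0.17, edgeR adjusted p = 0.00508) and Ctsd by 0.72 (SE 0.21, edgeR adjusted p = 0.0205), although for Ctsd the highest control library, at 1965 CPM, exceeded the lowest SF3a1 library, at 1925 CPM.

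Gusb, the gene of β-glucuronidase, was at 714, 658 and 649.7 CPM with control siRNA and at 1233, 1198 and 1232 CPM with SF3a1 siRNA, without LPS. After LPS the values were 591, 511 and 476 CPM against 1033, 986 and 1012 CPM. The rise was 0.86 without LPS (SE 0.12, edgeR adjusted p = 0.000304) and 0.94 with LPS (SE 0.12, edgeR adjusted p = 0.000142), with no overlap in either case. Ctsz, which encodes the carboxypeptidase cathepsin Z, rose by 0.59 and 0.33, and Asah1, the acid ceramidase gene, by 0.37 and 0.50, all on the log2 scale. The Ctsz call with LPS (edgeR adjusted p = 0.0936) was lost in 7 of the 12 fits that left out 1 library. Lipa, the gene of lysosomal acid lipase, was called without LPS only, at 633, 589.6 and 598 CPM against 825, 830.0 and 777 CPM, while Neu1, a sialidase gene, and Lgmn, the gene of asparaginyl endopeptidase, were called with LPS only. For these 3 genes the difference between the 2 SF3a1 effects was not called (edgeR adjusted p = 0.423 for Lipa, 0.915 for Neu1 and 0.299 for Lgmn). Neu1 was also higher without LPS in the fit with the replicate block (log2 fold change 0.68, edgeR adjusted p = 0.000405). Its call with LPS was lost in 3 of the 12 fits that left out 1 library.

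Ctsc moved the other way. It lies at chr7:88278085-88310888, encodes cathepsin C, the dipeptidyl peptidase that activates granule serine proteases, and was at 102, 116 and 93.3 CPM with control siRNA and no LPS. After LPS it was at 773, 251 and 233 CPM with control siRNA, but at 90.8, 141 and 93.0 CPM with SF3a1 siRNA. All 3 LPS libraries with control siRNA were above every other library, and replicate 1 stood far above the others. LPS raised Ctsc by 2.02 on the log2 scale with control siRNA (SE 0.40, edgeR adjusted p = 0.00210), and its level with LPS was lower with SF3a1 siRNA by a log2 fold change of -1.95 (SE 0.40, edgeR adjusted p = 0.00263). Without replicate 1 of control siRNA with LPS these values were 1.23 and -1.16, both still called. The difference between the SF3a1 effects with and without LPS was -1.57 (edgeR adjusted p = 0.195) and was called with the replicate block at -1.50 (edgeR adjusted p = 0.0845). Without replicate 1 of every group it was -0.77 and not called (edgeR adjusted p = 0.229).

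LPS lowered 4 of the 18 hydrolase genes (22.2%) and raised 2 (11.1%), Ctsc and Ctsz, shares near the 18.3% and 13.8% of all tested genes. Lgmn was at 674, 563 and 674 CPM without and 299.8, 348 and 324 CPM with LPS, a log2 fold change of -0.98 (SE 0.16, edgeR adjusted p = 0.000638). With SF3a1 siRNA and LPS it was at 357, 551 and 454 CPM, above each control library with LPS. Man2b1, the gene of lysosomal α-mannosidase, fell by 0.70 on the log2 scale with LPS, Tpp1, the gene of a tripeptidyl peptidase, fell by 0.57, and Gusb fell by 0.36. The Gusb call was lost in 5 of 18 alternative fits. Ctsz went from 713, 811 and 741 CPM to 1458, 1205 and 1211 CPM with LPS (log2 fold change 0.77, SE 0.14, edgeR adjusted p = 0.00126), and no library of one group reached those of the other. With the replicate block, Ctsb, Ctsd and Ctss were also called higher with LPS, at 0.33, 0.37 and 0.55, and Hexa, Asah1 and Ppt1 lower, at -0.36, -0.27 and -0.50.

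All 3 soluble cofactor genes were called higher with SF3a1 siRNA without LPS, where 13.7% of all tested genes were. Npc2 (chr12:84754562-84773152) encodes the protein that hands cholesterol to the lysosomal membrane, and had 307, 225 and 266 CPM with control siRNA and 633, 468 and 552 CPM with SF3a1 siRNA. With LPS it had 1091, 585 and 743 CPM with control siRNA and 1083, 733 and 715 CPM with SF3a1 siRNA. Each treatment alone thus went with higher Npc2, and in the presence of LPS the siRNA groups overlapped. LPS raised Npc2 by 1.60 on the log2 scale (SE 0.24, edgeR adjusted p = 0.000320) and SF3a1 siRNA raised it by 1.05 without LPS (SE 0.24, edgeR adjusted p = 0.00599), while the SF3a1 effect with LPS was 0.06 (SE 0.24, edgeR adjusted p = 0.874). The difference between the SF3a1 effects was -0.99 and was not called (edgeR adjusted p = 0.182), but it was called with the replicate block (-0.97, edgeR adjusted p = 0.00510) and without replicate 1 of every group (-0.93, edgeR adjusted p = 0.0420).

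Psap, whose product is cut into the saposins that present lipids to hydrolases, was at 1237, 1024 and 1088 CPM with control siRNA and 1705, 1509 and 1466 CPM with SF3a1 siRNA, without LPS. With LPS it was at 1019.7, 788 and 753 CPM against 1646, 1506 and 1387 CPM. SF3a1 siRNA raised Psap by 0.48 (SE 0.15, edgeR adjusted p = 0.0297) and 0.83 (SE 0.15, edgeR adjusted p = 0.00129), and the LPS effect with control siRNA was -0.39 (SE 0.15, edgeR adjusted p = 0.0765), a call lost in 6 of the 12 fits that left out 1 library. Grn, which encodes progranulin, was higher with SF3a1 siRNA without LPS by 0.49 (SE 0.19, edgeR adjusted p = 0.0695), a call lost in 4 of the 12 fits that left out 1 library. In the presence of LPS it was at 1207, 827 and 799 CPM with control siRNA and 998, 825 and 938 CPM with SF3a1 siRNA, groups that overlapped (log2 fold change -0.04, edgeR adjusted p = 0.910). LPS with control siRNA gave 0.44 (edgeR adjusted p = 0.103), which the replicate block called (0.44, edgeR adjusted p = 0.00796).

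Of the 9 membrane protein genes, 5 were called higher with SF3a1 siRNA in both conditions, namely Lamp1, Cd63, Gpnmb, Laptm5 and Scarb2, where 13.7% of all tested genes were called higher without LPS and 18.4% with LPS. The replicate block gave 7 higher and 1 lower without LPS, beside 20.7% and 26.3% of all genes, and 6 higher and 1 lower with LPS, beside 24.6% and 26.3%. Lamp1 encodes an abundant glycoprotein of the lysosomal membrane and was at 843, 797 and 869 CPM against 1194, 1203 and 1118 CPM without LPS, and at 735, 732 and 734 CPM against 1173, 1250.4 and 1120.0 CPM with LPS. The libraries of each group were close together and the groups were well apart, at log2 fold changes of 0.49 (SE 0.11, edgeR adjusted p = 0.00617) and 0.69 (SE 0.11, edgeR adjusted p = 0.000645). Lamp2, which encodes the partner of LAMP1, was not called with SF3a1 siRNA, at 0.28 without LPS and -0.09 with LPS, although the replicate block called the former (0.28, edgeR adjusted p = 0.0931).

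Gpnmb (chr6:49036546-49070929), a glycoprotein gene known for its induction when lysosomes are under stress, changed most among the membrane proteins. It was at 121, 157 and 119.8 CPM with control siRNA and at 282, 670.5 and 406 CPM with SF3a1 siRNA, without LPS. In the presence of LPS it was at 91.3, 121 and 70.9 CPM against 268, 527 and 363 CPM. Replicate 2 was the highest of each group, and all libraries with SF3a1 siRNA were above all with control siRNA. The log2 fold change was 1.77 without LPS (SE 0.32, edgeR adjusted p = 0.00165) and 2.03 with LPS (SE 0.33, edgeR adjusted p = 0.000630). The tetraspanin gene Cd63 rose by 0.94 and 0.98 on the log2 scale, without and with LPS, from group means of 77.6 ± 15.3 and 102 ± 31.0 CPM (SD, n = 3) to 149 ± 15.2 and 202 ± 24.5 CPM (SD, n = 3).

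Laptm5 and Scarb2 were called lower with LPS and higher with SF3a1 siRNA in both conditions. Laptm5, a membrane protein gene of blood cells, was at 1222, 1141 and 984 CPM without and 710.0, 809 and 597 CPM with LPS, and SF3a1 siRNA brought it to 1508, 1628 and 1289 CPM and 1236, 1299 and 1184 CPM in the same order. Its log2 fold changes were -0.66 for LPS (SE 0.15, edgeR adjusted p = 0.00522), 0.40 for SF3a1 siRNA without LPS (SE 0.15, edgeR adjusted p = 0.0641) and 0.81 with LPS (SE 0.15, edgeR adjusted p = 0.00145). The call with SF3a1 siRNA without LPS was lost in 4 of 18 alternative fits. Scarb2, the gene of LIMP-2, which carries β-glucocerebrosidase to lysosomes, changed by -0.29, 0.49 and 0.35 in the same comparisons. Its LPS call (edgeR adjusted p = 0.0884) was lost in 8 of the 12 fits without 1 library, and the Lamp2 rise of 0.34 with LPS (edgeR adjusted p = 0.0928) in 9.

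Mcoln1 was the member called lower with SF3a1 siRNA without LPS. It was at 39.0, 31.7 and 33.9 CPM with control siRNA and 27.2, 16.3 and 22.3 CPM with SF3a1 siRNA, and these did not overlap. The log2 fold change was -0.66 (SE 0.21, edgeR adjusted p = 0.0358), a call lost in 3 of the 12 fits that left out 1 library. With LPS the log2 fold change was -0.46 (SE 0.21, edgeR adjusted p = 0.122), which the replicate block called (-0.48, edgeR adjusted p = 0.0179). Cd68, a macrophage marker of the lysosomal membrane, stayed between 677 and 859.9 CPM in all 12 libraries and was not called in the fit over these libraries without the replicate block, which called it with SF3a1 siRNA and LPS.

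**Figure D4:**
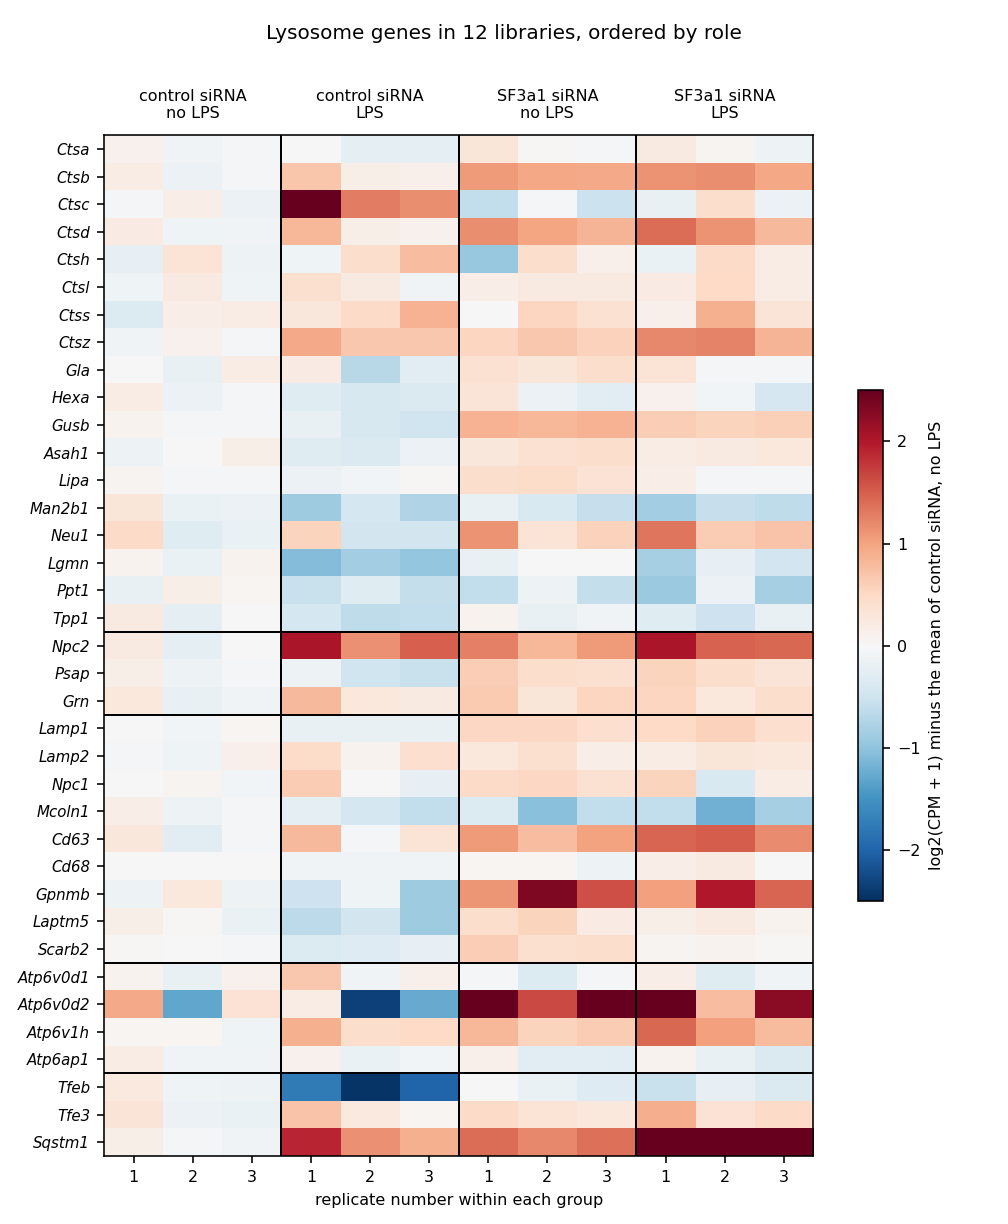
Log2(CPM + 1) of each of the 37 genes in each of 12 libraries, minus the mean of control siRNA without LPS, with horizontal lines between hydrolases, cofactors, membrane proteins, pump genes and regulators; the colour scale ends at 2.5 on either side. Ctsb, Ctsd, Gusb, Lamp1, Gpnmb and Atp6v0d2 are above the control mean in all 6 SF3a1 libraries, and Tfeb is farthest below it in the 3 libraries with control siRNA and LPS.

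Of the 4 proton pump genes, Atp6v0d2 and Atp6v1h were called higher with SF3a1 siRNA in both conditions and Atp6v0d1 and Atp6ap1 in neither. Of all tested genes, 13.7% were called higher without LPS and 18.4% with LPS. The replicate block also called Atp6v0d1 lower with LPS, where it called 24.6% of all genes higher and 26.3% lower. Atp6v0d1 and Atp6v0d2 encode alternative forms of the same subunit of the membrane sector, the former used widely and the latter in osteoclasts and some macrophages. Atp6v0d2 (chr4:19876841-19922605) was at 38.7, 7.42 and 25.4 CPM with control siRNA and 212, 63.5 and 162 CPM with SF3a1 siRNA, without LPS. With LPS it was at 22.4, 3.10 and 7.69 CPM against 166, 34.1 and 98.2 CPM. Replicate 1 was the highest and replicate 2 the lowest in every group, and within each replicate number SF3a1 siRNA gave the higher level. This gene had the greatest rise of the 37, at 2.61 without LPS (SE 0.77, edgeR adjusted p = 0.0237) and 3.12 with LPS (SE 0.79, edgeR adjusted p = 0.00964). With the replicate block it was also called lower with LPS with control siRNA (-1.18, edgeR adjusted p = 0.000476). Atp6v0d1 ranged from 119 to 239 CPM over the 12 libraries.

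Atp6v1h encodes a regulatory subunit of the part of the pump that splits ATP. It was at 102, 103 and 91.6 CPM with control siRNA and no LPS, and at 183, 135 and 139 CPM with LPS. With SF3a1 siRNA it was at 176, 146 and 154 CPM without LPS and 268, 202 and 172 CPM with LPS. It rose by 0.62 with LPS (SE 0.18, edgeR adjusted p = 0.0197), by 0.68 with SF3a1 siRNA without LPS (SE 0.18, edgeR adjusted p = 0.0127) and by 0.49 with SF3a1 siRNA with LPS (SE 0.18, edgeR adjusted p = 0.0518). This last call was lost in 3 of the 12 fits that left out 1 library. Among 15 other genes of the pump and its accessory proteins, 9 were called higher and 1 lower with SF3a1 siRNA without LPS. There, 13.7% and 20.1% of all tested genes were called. With LPS, SF3a1 siRNA gave 8 higher and 1 lower of the 15, where 18.4% and 20.4% of all tested genes were called. Atp6v1a, which encodes the catalytic subunit, rose from 352 ± 52.4 to 1043 ± 205 CPM (SD, n = 3) in the absence of LPS, or by 1.57 on the log2 scale (SE 0.26, edgeR adjusted p = 0.000790). The gene called lower was Atp6v1c1, which encodes a stalk subunit, at -1.11 without LPS.

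Atp6v0d2 also belongs to a list of 10 osteoclast markers, which shares Acp5 and Ctsk with the list of mostly hydrolases described below. Of these, 8 passed the filter, and 6 were called higher without LPS and 5 with LPS when SF3a1 siRNA was given, where 13.7% and 18.4% of all tested genes were called higher. All 8 had a log2 fold change above 0 without LPS and 7 with LPS, beside 7278 and 7110 of all 14983 tested genes. The summed level of the list was 844, 879 and 944 CPM with control siRNA and 3256, 2082 and 2505 CPM with SF3a1 siRNA, without LPS. With LPS it was 998, 802 and 785 CPM against 3383, 1860.4 and 2849 CPM. Nfatc1, a transcription factor gene, was the most abundant and rose by 1.38 and 1.64 on the log2 scale. Acp5, the gene of tartrate-resistant acid phosphatase, went from 68.9 ± 50.8 to 418 ± 306 CPM (SD, n = 3) without LPS (log2 fold change 2.60, edgeR adjusted p = 0.0402). With LPS it went from 163 ± 118 to 614 ± 444 CPM (SD, n = 3), which was not called (1.91, edgeR adjusted p = 0.102). Within each replicate number, Acp5 was higher with SF3a1 siRNA in both conditions. Ctsk, the gene of the bone-resorbing protease cathepsin K, went from 2.15 ± 2.03 to 11.4 ± 7.91 CPM (SD, n = 3) without LPS and from 2.74 ± 2.43 to 14.8 ± 12.6 CPM (SD, n = 3) with LPS, and was called in both (log2 fold change 2.37 in each). Ocstamp, a gene of osteoclast fusion, was at 8.71 ± 4.86 CPM with control siRNA and 10.6 ± 10.7 CPM with SF3a1 siRNA without LPS (SD, n = 3), and SF3a1 siRNA was not seen to change it there (log2 fold change 0.29, edgeR adjusted p = 0.766). In the presence of LPS, SF3a1 siRNA raised it from 20.2 ± 1.86 to 68.0 ± 23.0 CPM (SD, n = 3). Without LPS, group means with control and SF3a1 siRNA were 17.2 and 31.5 CPM for Dcstamp, 0.280 and 2.76 CPM for Mmp9, and 0.0651 and 0.643 CPM for Itgb3. With LPS they were 22.1 and 45.5 CPM, 66.1 and 60.3 CPM, and 0.273 and 1.28 CPM, in the same order. Ctsk did not exceed 29.2 CPM in any library, Oscar did not exceed 0.303 CPM, and Calcr, the calcitonin receptor gene that marks mature osteoclasts, had no read in 10 of 12 libraries. The part of this list in the changes of the lysosome genes was not tested. Of 6 B cell markers, 1 had a mean of at least 1 CPM, Ighm at 42.5 CPM, and the summed list was at 85.8 to 103 CPM with control siRNA and 10.3 to 28.7 CPM with SF3a1 siRNA, both without LPS. After LPS it was at 19.9 to 74.1 CPM with control siRNA and 4.24 to 20.3 CPM with SF3a1 siRNA, so that the groups overlapped. Ighm, the 1 gene of them tested, was called lower with SF3a1 siRNA without LPS (log2 fold change -2.42) and with LPS (-1.92). Of all tested genes, 20.1% and 20.4% were called lower there. The part of the B cell list was not tested either. Lists of dendritic cell, T cell, fibroblast and epithelial markers summed to at most 3.71, 13.8, 0.447 and 0.242 CPM in any library, and Cd8a and Trac had no read at all. Lck, which made up most of the T cell list, was at 10.0 to 13.7 CPM with control siRNA and LPS and at 1.81 to 6.33 CPM elsewhere.

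Tfeb (chr17:47737030-47792419) encodes a transcription factor that drives lysosomal and autophagy genes. It was at 46.0, 35.5 and 35.0 CPM with control siRNA and fell to 10.6, 6.20 and 8.92 CPM with LPS. With SF3a1 siRNA it was at 38.0, 34.3 and 30.6 CPM without LPS and 25.7, 33.1 and 29.9 CPM with LPS. The control libraries with LPS were thus below the other 9 libraries, which lay between 25.7 and 46.0 CPM. LPS lowered Tfeb with control siRNA by a log2 fold change of -2.17 (SE 0.21, edgeR adjusted p = 7.39e-06). SF3a1 siRNA gave -0.18 without LPS (SE 0.20, edgeR adjusted p = 0.564) and 1.77 with LPS (SE 0.21, edgeR adjusted p = 8.33e-05), and LPS with SF3a1 siRNA gave -0.22 (SE 0.20, edgeR adjusted p = 0.660).

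The difference between the SF3a1 effects with and without LPS, the interaction, was called for 1 of the 37 genes in the higher direction and for 0 in the lower, where 1.54% and 1.94% of all tested genes were called. The gene was Tfeb, at 1.95 (SE 0.28, edgeR adjusted p = 0.00521), and it was called in each of the 12 fits that left out 1 library, at 1.75 to 2.13. For the lower direction, edgeR with the replicate block called Ctsc, Npc2 and Grn, DESeq2 and the fit with no filter each called Ctsc and Npc2, and the fit without replicate 1 of every group called Npc2. Of all genes these 4 fits called 5.18%, 3.61%, 1.74% and 3.09% lower, and 6.54%, 2.84%, 1.5% and 3.73% higher, with Tfeb as the 1 lysosome gene called higher in each. Of the 12 fits that left out 1 library, 1 called a lysosome gene lower, Npc2 without replicate 1 of SF3a1 siRNA with LPS (-1.21, edgeR adjusted p = 0.0956). Tfe3, which encodes the related factor, ranged from 158 to 337 CPM and was not called in the fit over all 12 libraries without the block. Without replicate 1 of every group it was called higher with SF3a1 siRNA without LPS (0.47, edgeR adjusted p = 0.0186), and the block called it higher in all 3 comparisons, by 0.34 when LPS was added, and by 0.37 and 0.25 when SF3a1 was targeted in the absence and presence of LPS.

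Sqstm1 (chr11:50199366-50210827) encodes p62, the receptor that brings ubiquitinated cargo to autophagosomes. Its level was 419, 365 and 354 CPM with control siRNA, 1425, 842 and 699.7 CPM with LPS, 998, 867 and 981 CPM with SF3a1 siRNA, and 2808, 3097 and 2667 CPM with both. The untreated control libraries were the lowest 3 and the doubly treated libraries the highest 3 of the 12, and the singly treated groups overlapped each other. Sqstm1 rose by 1.38 with LPS (SE 0.22, edgeR adjusted p = 0.000465), by 1.32 with SF3a1 siRNA without LPS (SE 0.22, edgeR adjusted p = 0.000880) and by 1.53 with LPS (SE 0.22, edgeR adjusted p = 0.000295). The interaction on the log2 scale was 0.21 (SE 0.30, edgeR adjusted p = 0.908). Sqstm1 shares 580 exon bases with Mrnip on the other strand.

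**Figure D5:**
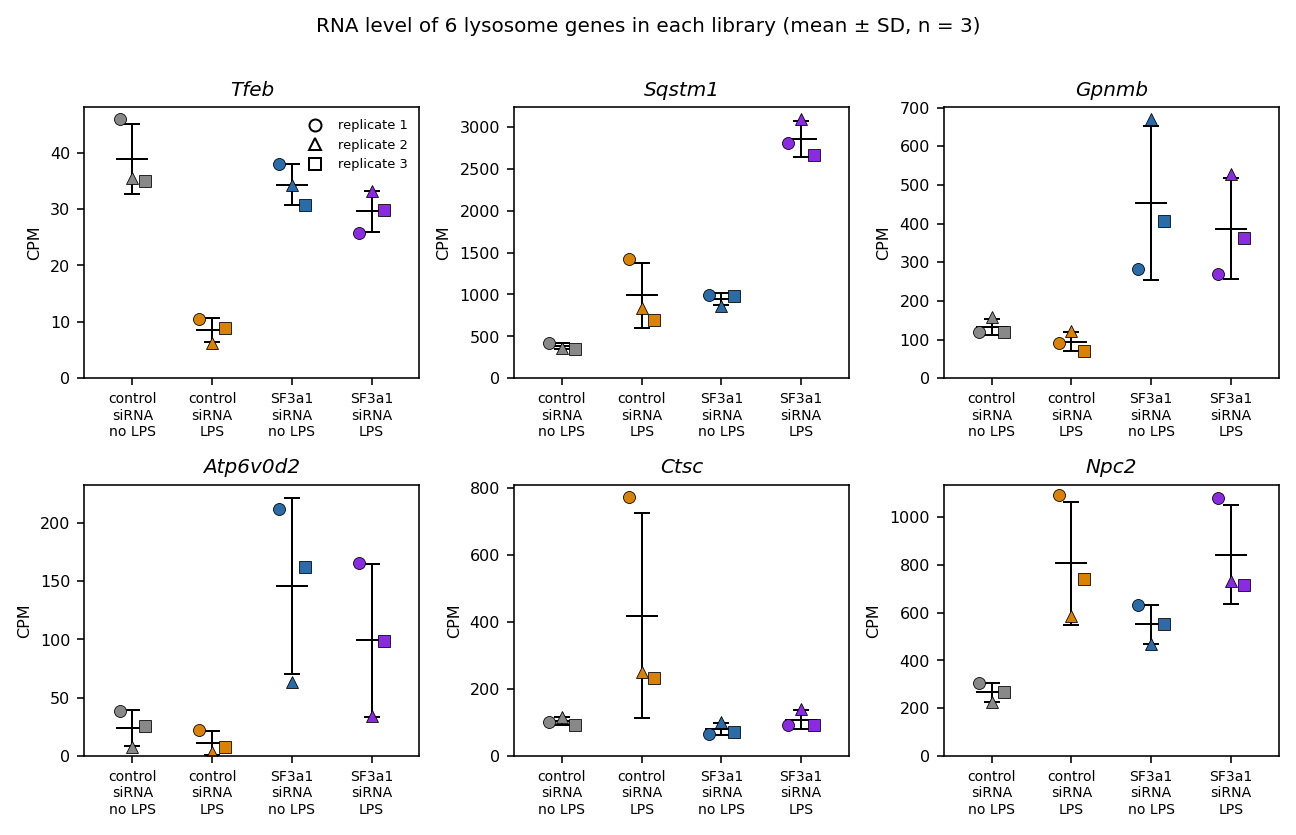
CPM of 6 genes in each of the 12 libraries, with the replicate number by symbol and the mean ± SD of each group of 3 as a bar. Tfeb is low only in control siRNA with LPS, Sqstm1 is highest with both treatments, Gpnmb and Atp6v0d2 are higher with SF3a1 siRNA, and Ctsc is high only with control siRNA and LPS.

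LPS in cells with SF3a1 siRNA moved few of these genes past the threshold. It called 2 higher and 2 lower, where 6.6% of all tested genes were called higher and 4.06% lower. Sqstm1 rose by 1.59 (SE 0.22, edgeR adjusted p = 0.000512) and Ctsz by 0.51 (SE 0.14, edgeR adjusted p = 0.0448). Lipa changed by -0.40 (SE 0.12, edgeR adjusted p = 0.0610) and Scarb2 by -0.43 (SE 0.12, edgeR adjusted p = 0.0404), both without overlap of the groups. Of the 12 fits that left out 1 library, the call was lost in 4 for Ctsz, 5 for Lipa and 3 for Scarb2, and without replicate 1 of every group those of Ctsz and Scarb2 were lost. All 3 were lost with no filter and with 2 groups only, while the fit with no filter called a further lysosome gene higher. With the replicate block 10 genes were called, 5 in each direction, where 11.3% of all genes were called higher and 9.48% lower, among them Npc2 at 0.60 (edgeR adjusted p = 0.00460) and Lgmn at -0.43 (edgeR adjusted p = 0.0533).

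Usage of exon bins, the parts into which annotated exons were split for counting, was compared within each gene with edgeR's diffSpliceDGE in 11 libraries. Replicate 3 with control siRNA and LPS was not used at this level. Ctsd was counted there as 1 unit with a second gene, so bins of that gene can be among those taken as bins of Ctsd. Of 583 bins in 36 of the lysosome genes, LPS called 0, where 0.0801% of all 153624 tested bins were called. SF3a1 siRNA called 1 without LPS, where 0.626% of all bins were called, and 0 with LPS, where 0.492% were. At an unadjusted p under 0.05 the same tests gave 12, 13 and 25 of the 583 bins, beside 1.97%, 3.39% and 3.99% of all bins. The block called 1, 7 and 2 of the 583 bins, beside 0.186%, 1.38% and 1.17% of all bins. The called bin is a 13-base part of Ctsa, the gene of cathepsin A, at chromosome 2 from 164833760 to 164833772 (mm10), which lies in an exon of 2 of 16 annotated transcripts. It held 52, 10 and 18 reads with control siRNA and 2, 2 and 2 reads with SF3a1 siRNA, without LPS. Its log2 change in usage was -2.98 (diffSpliceDGE of edgeR, adjusted p = 0.0578), and the call was lost in 5 of the 11 fits that left out 1 library.

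With the replicate block, bins of Psap, Ppt1, Tfe3 and Mcoln1 and 2 more bins of Ctsa were called with SF3a1 siRNA without LPS. In Ppt1, the gene of palmitoyl-protein thioesterase 1, the bin is a stretch of 653 bases on chromosome 4 from 122849607 to 122850259 that 1 of 4 transcripts has as exon and 2 have as intron. It held 0.436 ± 0.244% of the bin counts of Ppt1 with control siRNA and 1.65 ± 0.347% with SF3a1 siRNA (SD, n = 3). Its log2 change was 1.92 in the fit without the block (diffSpliceDGE of edgeR, adjusted p = 0.119) and 2.00 with it (adjusted p = 0.00812).

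A further 164 lysosome and autophagy genes were listed by role, of which 160 passed the filter. SF3a1 siRNA called 46 of them higher and 15 lower without LPS, where 13.7% and 20.1% of all tested genes were called, and 58 higher and 22 lower with LPS, where 18.4% and 20.4% were. Their medians were 0.21 and 0.25, against -0.02 and -0.04 over all genes. LPS with control siRNA called 19 higher (11.9%) and 32 lower (20%), near the 13.8% and 18.3% of all genes. Of the 164 genes, 39 were mostly of hydrolases. The 39 also held the lipid-binding cofactor gene Gm2a, the thiol reductase gene Ifi30, the acetyltransferase gene Hgsnat and the sulfatase activator gene Sumf1. Among them LPS called 0 higher and 15 lower (38.5%), while SF3a1 siRNA called 14 higher (35.9%) and 3 lower (7.69%) without LPS and 19 higher (48.7%) and 2 lower (5.13%) with LPS. Of the 40 tested autophagy genes, SF3a1 siRNA called 10 higher (25%) and 5 lower (12.5%) without LPS and 13 higher (32.5%) and 7 lower (17.5%) with LPS. Of 20 genes of enzyme sorting to the lysosome it called 5 higher (25%) and 3 lower (15%), and then 8 higher (40%) and 5 lower (25%). For 26 other membrane proteins and transporters the counts were 5 higher (19.2%) and 1 lower (3.85%) without LPS, and with LPS 5 in each direction (19.2%), near the shares over all genes. The 20 genes of the TFEB family and of mTORC1 at the lysosome gave 3 higher (15%) and 2 lower (10%), the former near the share over all genes, and with LPS 5 higher (25%) and 2 lower (10%).

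Of these lists, called members that averaged at least 10 CPM over the 12 libraries were ranked by their change in each comparison. Ctsk, at 7.78 CPM, was thus left out, and so was Acp5 with SF3a1 siRNA and LPS, where it was not called. With LPS and control siRNA, Slc15a3, a lysosomal peptide transporter gene, rose from 14.1 ± 1.82 to 318 ± 166 CPM (SD, n = 3), and Slc11a1, Slc11a2 and Litaf followed at log2 fold changes of 2.25, 1.75 and 1.33. Tpcn1, a cation channel gene, fell from 272 ± 69.0 to 62.1 ± 5.27 CPM (SD, n = 3), and Sgsh, Slc17a5 and Sort1 fell by 1.98, 1.63 and 1.36 on the log2 scale. With SF3a1 siRNA without LPS the largest rises among those ranked were, after Acp5 at 2.60, those of the hyaluronidase gene Hyal1 at 1.97, of Atp6v1a at 1.57 and of Mitf, which encodes a factor of the TFEB family, at 1.40. Mitf was at 98.1, 98.6 and 103 CPM with control siRNA and 284, 249 and 259 CPM with SF3a1 siRNA. The largest falls were those of Atg3 and Becn1, 2 genes of autophagosome formation, at -1.29 and -1.13, of Atp6v1c1 at -1.11 and of Tpcn1 at -1.09. With SF3a1 siRNA and LPS, Hyal1, Gga2, Atp6v1a and Gm2a rose by 2.99, 1.68, 1.53 and 1.51, and Slc15a3, Atg3, Ap3b1 and Becn1 fell by 1.98, 1.31, 1.18 and 1.17. With LPS in cells with SF3a1 siRNA, Slc15a3, Slc11a1 and Slc11a2 rose by 2.63, 1.42 and 1.40, and Slc17a5, Gnptab, Sgsh and Tpcn1 fell by 1.35, 1.11, 1.09 and 0.93.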

How the data were processed

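The authors sequenced polyadenylated RNA on the Ion Proton and mapped it to mm10 with GSNAP, per the submitters' processing notes. The deposited values are counts of uniquely mapped reads per Ensembl gene (htseq-count) and per exon bin (DEXSeq's counting script), not normalized. Here R 4.3.3, edgeR 4.0.16 and DESeq2 1.42.0 were used. Genes were filtered with filterByExpr, scaled by TMM and fitted over all 12 libraries with 1 mean per group. Reads outside genes (17.8% to 27.2%) and ambiguous reads (0.431% to 0.530%) were left out. Bins were placed with GENCODE vM21 (GRCm38), whose exon lengths also scaled levels, and 21 of the 37 genes had the same number of bins there. The edgeR fits of genes and of exon bins were tested on simulated data, for SF3a1 siRNA without LPS only and without the block. Deviations of same-numbered libraries correlated at 0.144 to 0.659 in all 18 pairs, and those of other pairs at -0.591 to 0.417. Replicate 3 of control siRNA without LPS correlated at 0.417 with replicate 2 of SF3a1 siRNA with LPS, and at 0.144 with its replicate 3. Pairing by number is thus not shown for all libraries numbered 2 and 3. Alternatives were DESeq2, its size factors, no filter, the replicate block, each library left out, replicate 1 left out, and 2 groups only. All 37 genes could be named, and of the other listed genes the 4 largest called rises and falls per comparison among those with a mean of at least 10 CPM, of which 1 is not reported here. The genes and lists were chosen with earlier results of these data known. Depth limits low genes such as Ctsh.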

Additional observations from a re-analysis of the deposited data

Results flagged for a closer look

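The SF3a1 effect with LPS differed from that without LPS, by the interaction term of edgeR's quasi-likelihood test, for Tfeb by 1.95 on the log2 scale (adjusted p = 0.00521), since it was higher with SF3a1 siRNA with LPS and not called without LPS. Among the other lysosome and autophagy genes, where the mean level reached 10 CPM or more, the same term was called for Gga2, an adaptor gene of enzyme sorting, at 1.93 (edgeR adjusted p = 0.00166), for Dnase2a, the acid DNase gene, at 0.98 (edgeR adjusted p = 0.0185), and for Siae, a sialic acid esterase gene, at 0.95 (edgeR adjusted p = 0.0827). It was negative for Cln3, a lysosomal membrane protein gene, at -0.89 (edgeR adjusted p = 0.0273), and for Slc15a3 at -1.87 (edgeR adjusted p = 0.0531). Gga2 was at 73.2, 62.2 and 58.0 CPM with control siRNA, 28.8, 29.8 and 27.8 CPM with LPS, 53.1, 52.4 and 57.1 CPM with SF3a1 siRNA, and 84.0, 78.6 and 114 CPM with both.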

How the results depend on the processing

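The 58 results on single genes and bins called without the block, Sf3a1 among them, were looked up again in the alternatives, which reuse the same libraries. Of 1039 such values, 940 kept their direction and their side of the threshold, 99 kept the direction but lost the call, and 0 reversed. In all, 38 results kept their call in every alternative. Only called results entered, so a reversal was unlikely from the start. The cause of the changes below was not tested. When the replicate number entered the fit as a block, the lysosome genes called went from 14 to 26 for LPS with control siRNA (all genes 4809 to 6571), from 4 to 10 for LPS with SF3a1 siRNA (all genes 1598 to 3115) and from 1 to 4 for the interaction (all genes 520 to 1756). For exon bins the block gave 285 of all bins and 1 of the lysosome genes for LPS, 2113 and 7 when SF3a1 was targeted without LPS, and 1793 and 2 when it was targeted with LPS; it lost no call on a named gene or bin. LPS with SF3a1 siRNA called 2 lysosome genes with no filter (1813 of all 28638 genes) and 1 when 2 groups only were fitted (1284 of 14139). The interaction called 966 of all genes and 3 lysosome genes with DESeq2, 930 and 3 with no filter, and 1012 and 2 without replicate 1 of every group. Library totals in place of TMM gave 2 lysosome bins (0.343%) for SF3a1 siRNA without LPS, beside 0.622% of all bins. Leaving out 1 library at a time gave 11 to 16 lysosome genes for LPS (all genes 3985 to 5023), 16 to 20 for SF3a1 siRNA without LPS (3881 to 5627), 14 to 19 with LPS (4744 to 5993), 1 to 5 for LPS with SF3a1 siRNA (1050 to 2005) and 1 to 2 for the interaction (273 to 711). For bins it gave 0 to 1 of the lysosome genes for LPS (all bins 49 to 158), 0 to 2 for SF3a1 siRNA without LPS (527 to 1131) and 0 to 5 with LPS (101 to 888), where the 49 and the 101 came without replicate 1 of control siRNA with LPS, and the 5 without its replicate 2, each of which leaves 1 library there, assumed to vary like the other groups. Depth limits low genes: Ctsh had 393 reads in all 12 libraries.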
